A study of Bos taurus with 52 samples.

Results

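Expression of 8 genes of the early embryo was followed through day 17 bovine conceptuses: the transcription factor genes POU5F1, SOX2, NANOG and SALL4, the Nodal ligand gene NODAL and its co-receptor gene TDGF1, and LIN28A and DNMT3B. The genes were given by name, with earlier results of these data known, and 8 of 8 were found among the 31651 named genes of the count table. They were read in 27 conceptus RNA-seq libraries and, for their level only, in 25 endometrium libraries.

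POU5F1 (OCT4), SOX2 and NANOG form the core transcription factor circuit of pluripotent cells, and in an elongating ruminant conceptus these cells are the epiblast of the embryonic disc, a minute part of a sheet made mostly of trophectoderm lined by endoderm. Nodal is a secreted ligand of the TGF-beta superfamily that signals through activin receptors and SMAD2 and SMAD3, with TDGF1 (Cripto) as a membrane-anchored co-receptor. It maintains the epiblast and patterns it before gastrulation. LIN28A, an RNA-binding protein that blocks let-7 maturation, SALL4, a zinc finger factor, and DNMT3B, a de novo DNA methyltransferase, are expressed in pluripotent cells and also in other early lineages.

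The recipients were cattle (Bos taurus), labelled as heifers and sorted into high fertile (HF) and subfertile (SF) animals, and each conceptus was taken at day 17 of pregnancy. The groups were 10 SF conceptuses, 10 HF conceptuses labelled long and 7 HF conceptuses labelled short. Endometrium came from pregnant HF and SF heifers and from non-pregnant HF, SF and infertile heifers, 5 in each group. The labels used here state neither age, nor how the embryos were made, nor how fertility was assessed. The 27 conceptuses came from 19 recipients, 7 with SF, 10 with HF long and 6 with HF short conceptuses. Because 8 recipients gave 2 conceptuses each, the libraries were not all independent, and the p-values treat them as if they were. Titles gave a length for 20 conceptuses. The lengths ran from 1.5 to 14 cm with a median of 4 cm in 9 SF, from 9 to 17 cm with a median of 12 cm in 5 HF long, and from 1.2 to 6.9 cm with a median of 2.15 cm in 6 HF short conceptuses. A title gave a number without a unit for 3 of these lengths, which were read as cm, and lengths of 10 cm or more are given to the nearest cm.

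Each conceptus library held 20.5 to 47 M counted reads. The sample numbers in the descriptions ran in 2 series, here called the first and the second sheet; what a sheet marks is not stated. The first sheet held 7 SF, 10 HF long and 3 HF short libraries and the second 3 SF, 4 HF short and 0 HF long libraries, with lengths of 2 to 17 cm on the first and 1.2 to 4 cm on the second. For 22 conceptuses the title and the description disagreed on the animal or the length. Titles were used throughout. With identities from the descriptions, edgeR called 0 genes in each comparison of conceptuses, so that every edgeR call given here, of the gene lists too, rests on the titles. Markers of the main tissue were present: the trophectoderm genes GATA3 and CDX2 were at 26.6 to 230.2 and 11.1 to 29.2 CPM (read counts scaled to library size) over the 27 libraries, and the endoderm gene HNF4A was at 12.9 to 57.6 CPM. The mesoderm gene T was at 0 in 14 libraries. The library of SF 9 stood apart. It came from a 1.5 cm conceptus on the second sheet and held the highest CPM of POU5F1, SOX2, NANOG, NODAL, TDGF1, LIN28A and DNMT3B and of T at 1.29 CPM. Its summed trophectoderm markers were the lowest of the SF group, at 22746.9 CPM against a group median of 57323.3 CPM. An HF short conceptus was lower still, at 16030.4 CPM. Single trophectoderm genes of SF 9 went both ways against the SF medians. TKDP1, KRT18 and KRT8, which made most of the SF 9 sum, were at 8959.7, 6146.4 and 5699.3 CPM against 27911.5, 14098.1 and 10391.9 CPM. TFAP2A and TEAD4 were at 27.2 and 15.5 CPM against 19.6 and 10.9 CPM. The summed endoderm markers of SF 9 were the highest of the 27, at 8275.8 CPM against an SF median of 6349.4 CPM. FN1 made 6352.6 CPM of that sum. Single endoderm genes of SF 9 also went both ways against the SF medians. HNF4A and PDGFRA were at 57.6 and 88.8 CPM against 36.8 and 10.7 CPM. APOA1 and APOE were at 783.5 and 242.9 CPM against 1513.5 and 314.4 CPM. The summed uterine markers of SF 9 were at 30.1 CPM against an SF median of 6.02 CPM. The oxytocin receptor gene OXTR made 17.6 CPM of the SF 9 sum, beside an endometrial median of 8.85 CPM. Of the other uterine genes, DCN, ESR1 and SERPINA14 were at 0.382, 1.12 and 3.51 CPM in SF 9. Their SF medians were 0.253, 0.112 and 0.248 CPM, and their endometrial medians 2859.3, 7.20 and 25.3 CPM. Other conceptuses had higher uterine sums, up to 37.6 CPM in SF and 41.4 CPM in HF short. The part that cell makeup played in the values of SF 9 was not tested.

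Several patterns of level were seen among these genes. POU5F1, SOX2, NANOG and NODAL were low and varied widely from conceptus to conceptus, TDGF1 was well expressed and varied 48.7-fold, and SALL4, LIN28A and DNMT3B were well expressed and nearly even. None of those that could be tested differed between SF and HF long, SF and HF short, or HF short and HF long conceptuses after adjustment over all genes. TDGF1 was called between SF and all HF conceptuses, with a log2 fold change of 1.45 ± 0.42 (SE), in a comparison added after the data had been seen. That call was lost under 5 of 13 alternatives and without any 1 of 6 libraries. In bulk tissue fewer cells of a type and less RNA per cell cannot be told apart.

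**Figure D1:**
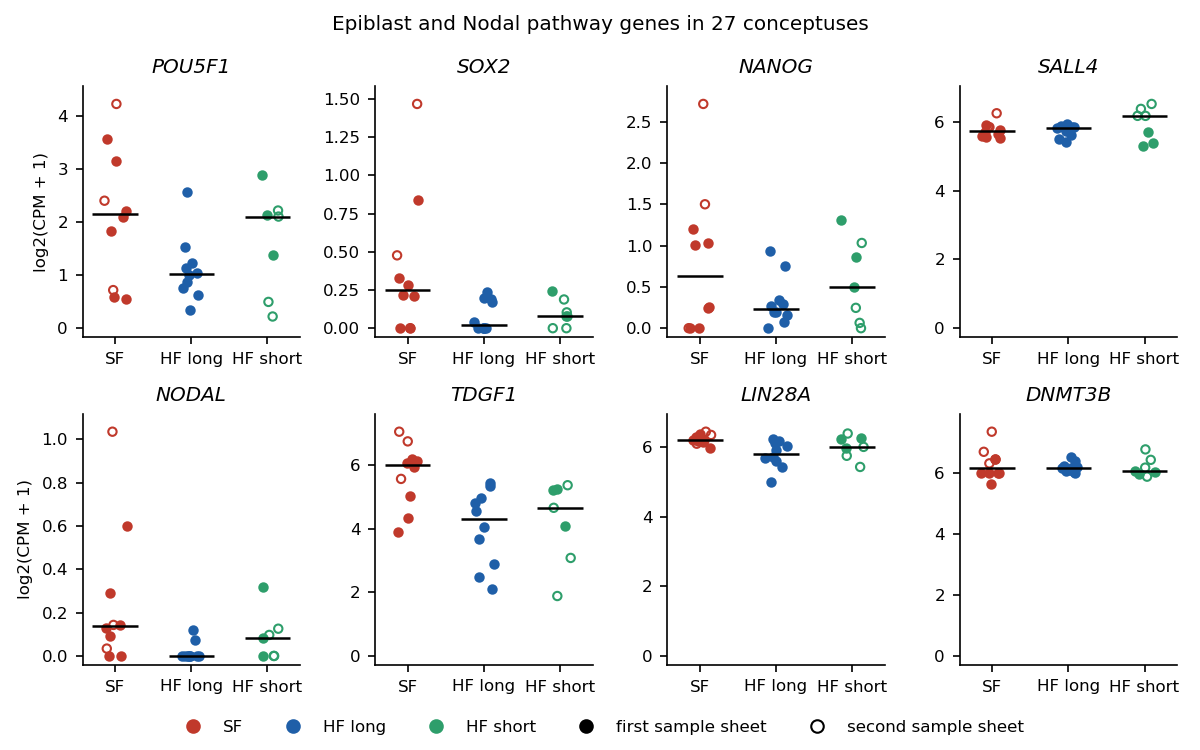
Level of the 8 genes, as log2(CPM + 1), in 10 SF, 10 HF long and 7 HF short conceptuses; each point is a library, each line a group median, filled points the first sheet and open points the second. POU5F1, SOX2, NANOG and NODAL spread widely with SF 9 at the top, whereas SALL4, LIN28A and DNMT3B lie in narrow bands.

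POU5F1 was detected in every conceptus. It was at 0.459, 3.45 and 17.7 CPM (lowest, median, highest) in SF, at 0.272, 1.03 and 4.91 CPM in HF long, and at 0.165, 3.29 and 6.41 CPM in HF short conceptuses. The groups overlapped, and the range over all 27 was 107.2-fold. These values rest on 7 to 741 reads; the lowest library, HF short 6, had 7 reads, with an exact Poisson interval of the level (95%, counting error only) that starts at 0.0663 CPM. Within SF, the values were 7.89, 0.459, 10.8, 3.62, 2.54, 0.496, 3.27, 0.644, 17.7 and 4.28 CPM for conceptuses 1 to 10, so that 3 of 10 lay under 1 CPM beside 2 above 10 CPM. In HF long, 9 of 10 lay at or under 1.88 CPM, and the other was HF long 3 at 4.91 CPM. The fitted log2 fold change of SF against HF long was 1.90 ± 0.70 (SE; 95% interval 0.47 to 3.33; edgeR adjusted p = 0.081).

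NANOG was lower in level and had 0 reads in 5 of 27 libraries. A count of 0 allows up to 0.0684 to 0.158 CPM, depending on the library (3 reads over the library's total). NANOG was at 0, 0.597 and 5.56 CPM in SF, at 0, 0.175 and 0.905 CPM in HF long, and at 0, 0.410 and 1.48 CPM in HF short conceptuses. The groups overlapped fully at the low end, and only SF 9 and SF 10, at 5.56 and 1.83 CPM, lay above every HF conceptus. The difference of SF from HF long was 1.58 ± 1.02 on the log2 scale (edgeR adjusted p = 0.33), and NANOG had the largest spread of the genes tested here, with a biological coefficient of variation of 1.37 against a median of 0.31 over all genes.

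SOX2, the partner of POU5F1 in the core circuit, had 0 reads in 10 of 27 conceptuses and at most 74 reads. Its level was 0, 0.190 and 1.76 CPM in SF, 0, 0.0146 and 0.180 CPM in HF long, and 0, 0.0587 and 0.185 CPM in HF short conceptuses. Most values were thus near the level of a few reads, and the 5 SF conceptuses above the highest HF value were SF 3, 4, 5, 9 and 10. SOX2 did not pass the filter on low counts. Without the filter, its log2 difference between SF and HF long was 2.18 ± 0.97 (edgeR adjusted p = 0.2). Whether the counting used strand is not given, so reads of any gene that overlaps SOX2 cannot be told apart from those of SOX2.

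SALL4 differed from the other transcription factor genes in being both higher and steadier. It was at 45, 52.0 and 74.8 CPM in SF, at 41.8, 55.7 and 59.9 CPM in HF long, and at 37.9, 70.9 and 90.5 CPM in HF short conceptuses. Its biological coefficient of variation was 0.16 with group and sheet in the fit, and only 5.28% of genes had a smaller one. Over all conceptuses its level ranged 2.39-fold. SF and HF long differed by -0.13 ± 0.10 on the log2 scale (95% interval -0.33 to 0.08; edgeR adjusted p = 0.44). By sheet, first-sheet libraries were at 37.9 to 59.9 CPM and second-sheet libraries at 56.3 to 90.5 CPM, a small overlap. In the HF short group, the 3 first-sheet libraries were at 37.9, 41.1 and 50.7 CPM and the 4 second-sheet libraries at 90.5, 81.8, 70.9 and 71.0 CPM, with no overlap.

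NODAL, the ligand, was at or near the limit of detection. It had 0 reads in 13 of 27 conceptuses and at most 44. In SF it was at 0, 0.0991 and 1.05 CPM, in HF long at 0, 0 and 0.0876 CPM with 8 of 10 libraries at 0, and in HF short at 0, 0.0586 and 0.247 CPM with 3 of 7 at 0. SF had 8 of 10 libraries with at least 1 read, and the reads in SF conceptuses 1 to 10 were 19, 0, 6, 3, 2, 0, 2, 1, 44 and 4. NODAL did not pass the filter either, and in the fit without a filter its log2 difference between SF and HF long was 3.30 ± 1.03 (edgeR adjusted p = 0.066). That fitted value leans on libraries with no read and gives no bound on the fold.

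TDGF1, the co-receptor, was detected in every conceptus at 90 to 5482 reads. The SF conceptuses 1 to 10 were at 60.4, 31.4, 69.3, 72.0, 19, 13.9, 65.7, 46.2, 130.7 and 105.7 CPM. The HF long conceptuses were at 3.26, 19 and 42.1 CPM (lowest, median, highest), and the HF short conceptuses 1 to 7 at 15.7, 36.3, 36.7, 24.1, 40.1, 2.69 and 7.44 CPM. Group medians were 63.1 CPM in SF and 24.1 CPM in HF short. Of the 10 SF conceptuses, 7 lay above the highest of the 17 HF conceptuses, and SF 2, SF 5 and SF 6 lay among them.

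With HF long and HF short taken as 1 group, a comparison added after the data had been seen, TDGF1 was higher in SF by 1.45 ± 0.42 on the log2 scale (95% interval 0.59 to 2.31; edgeR adjusted p = 0.035). It was the 1 gene of the 6 that passed the filter to be called, in a comparison that called 7.79% of 15678 genes. In the 3-group fit the difference of TDGF1 was 1.49 ± 0.52 against HF long (edgeR adjusted p = 0.069) and 1.41 ± 0.55 against HF short (edgeR adjusted p = 0.43), and neither was called. HF short and HF long differed by 0.08 ± 0.57 (95% interval -1.09 to 1.24; edgeR adjusted p = 0.99). The call was lost when the counts of a recipient were summed (log2 1.45, adjusted p = 0.094), on the first sheet alone (1.10, adjusted p = 0.11), in the 20 conceptuses with a length, with length in the fit (1.29, adjusted p = 0.26) or without it (1.35, adjusted p = 0.22), and with identities taken from the descriptions (0.72, adjusted p = 1). Leaving out 1 library at a time, it was also lost without SF 3 (adjusted p = 0.068), SF 4 (0.063), SF 7 (0.051), SF 9 (0.055), HF long 2 (0.051) or HF short 7 (0.054), with log2 differences of 1.31 to 1.59 over the 27 leave-outs.

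LIN28A was expressed in every conceptus and within a 2.79-fold range. It was at 61.6, 72.7 and 85.4 CPM in SF, at 30.6, 55.1 and 74.3 CPM in HF long and at 41.9, 62.9 and 82.3 CPM in HF short conceptuses. SF values lay in a narrow band at the upper end of the HF range, and 6 of 10 HF long and 3 of 7 HF short conceptuses lay below the lowest SF value. SF differed from HF long by 0.43 ± 0.14 on the log2 scale (95% interval 0.14 to 0.72; edgeR adjusted p = 0.057) and from HF short by 0.20 ± 0.15 (edgeR adjusted p = 0.76).

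DNMT3B had like medians in the 3 groups. It was at 48.3, 70.5 and 161.4 CPM in SF, at 62.3, 70.0 and 90.5 CPM in HF long, and at 57.5, 65.8 and 107.6 CPM in HF short conceptuses. SF and HF long differed by -0.02 ± 0.14 (95% interval -0.31 to 0.27; edgeR adjusted p = 0.95). The 3 highest values, 161.4 CPM in SF 9, 107.6 CPM in HF short 4 and 101.9 CPM in SF 10, were all on the second sheet.

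Across the 3 planned group comparisons, none of the 6 genes that passed the filter was called by the quasi-likelihood test of edgeR (adjusted by Benjamini-Hochberg). SF against HF long called 8.90% of 16330 genes, and 3 of the 6 (POU5F1, TDGF1 and LIN28A) had an unadjusted p under 0.05, as did 27.0% of all genes tested. The median log2 difference of the 6 was 0.96, beside 0.03 over all genes. None of the 6 lay near that median: POU5F1, NANOG and TDGF1 were at 1.90, 1.58 and 1.49. LIN28A was at 0.43, DNMT3B at -0.02 and SALL4 at -0.13. DESeq2 called 3 genes, at adjusted p of 0.023 for POU5F1, 0.032 for TDGF1 and 0.03 for LIN28A. For these 3, calls also appeared when HF long 3 was left out, at 0.031, 0.047 and 0.033 in the same order (edgeR). TDGF1 was also called without HF long 1 or SF 6, and LIN28A without HF long 1, HF long 7 or HF short 4. SF against HF short called 0.00612% of genes, with 1 of the 6 (TDGF1) at an unadjusted p under 0.05 and a median of 0.53. HF short against HF long called 0% of genes, with 0 of the 6 at an unadjusted p under 0.05 and a median of 0.16. DESeq2 called 0 of the 6 in either of those comparisons.

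**Figure D2:**
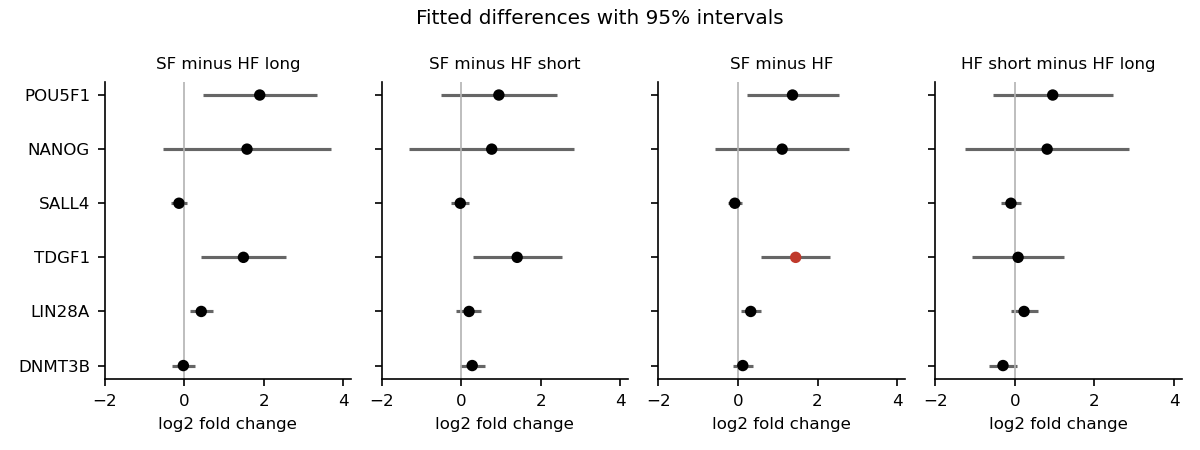
Fitted log2 fold changes of the 6 genes that passed the filter, with 95% intervals, in the comparisons of SF with HF long, SF with HF short, SF with all HF and HF short with HF long; red marks an edgeR adjusted p under 0.05. TDGF1 lies near 1.4 to 1.5 in each comparison with SF and is red only against all HF, and the intervals of SALL4 and DNMT3B are narrow about 0.

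The sheet itself moved with 2 of the 6 genes, in a comparison looked at after the data had been seen. Second-sheet libraries were higher in SALL4 by 0.56 ± 0.11 (edgeR adjusted p = 0.005) and in DNMT3B by 0.57 ± 0.15 (edgeR adjusted p = 0.025), and the other 4 genes were not called; this contrast called 5.00% of 16330 genes. SALL4 kept its call without any 1 of the 27 libraries, and DNMT3B lost it without SF 9 (0.38, adjusted p = 0.13), SF 10 (0.58, adjusted p = 0.061) or HF short 4 (0.52, adjusted p = 0.052). In the 20 conceptuses with a length, with log2 length in place of the groups, the values were 0.51 for SALL4 (adjusted p = 0.22) and 0.60 for DNMT3B (adjusted p = 0.36). With identities from the descriptions they were 0.10 and -0.08, with an adjusted p of 1 for each. Conceptuses of the second sheet measured 1.2 to 4 cm, so that sheet and length cannot be fully told apart.

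None of the 6 genes tested passed the test along conceptus length. Over 20 conceptuses, the slope per doubling of length was -0.46 ± 0.48 for POU5F1, -0.87 ± 0.63 for NANOG, -0.36 ± 0.34 for TDGF1 and -0.10 ± 0.09 for LIN28A. It was 0.01 ± 0.06 for SALL4 (95% interval -0.12 to 0.14) and 0.07 ± 0.10 for DNMT3B (95% interval -0.14 to 0.28). Their edgeR adjusted p ran from 0.58 to 0.96, with 0 of the 6 at an unadjusted p under 0.05; the length fit called 0% of 17196 genes, and DESeq2 called 0 of the 6. The 95% intervals were wide for NANOG (-2.18 to 0.44) and POU5F1 (-1.45 to 0.53) and include steep slopes. Without SF 3 the slopes were -1.14 for POU5F1, -1.36 for NANOG and -0.58 for TDGF1, and on the first sheet alone -0.19, -0.55 and -0.35.

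**Figure D3:**
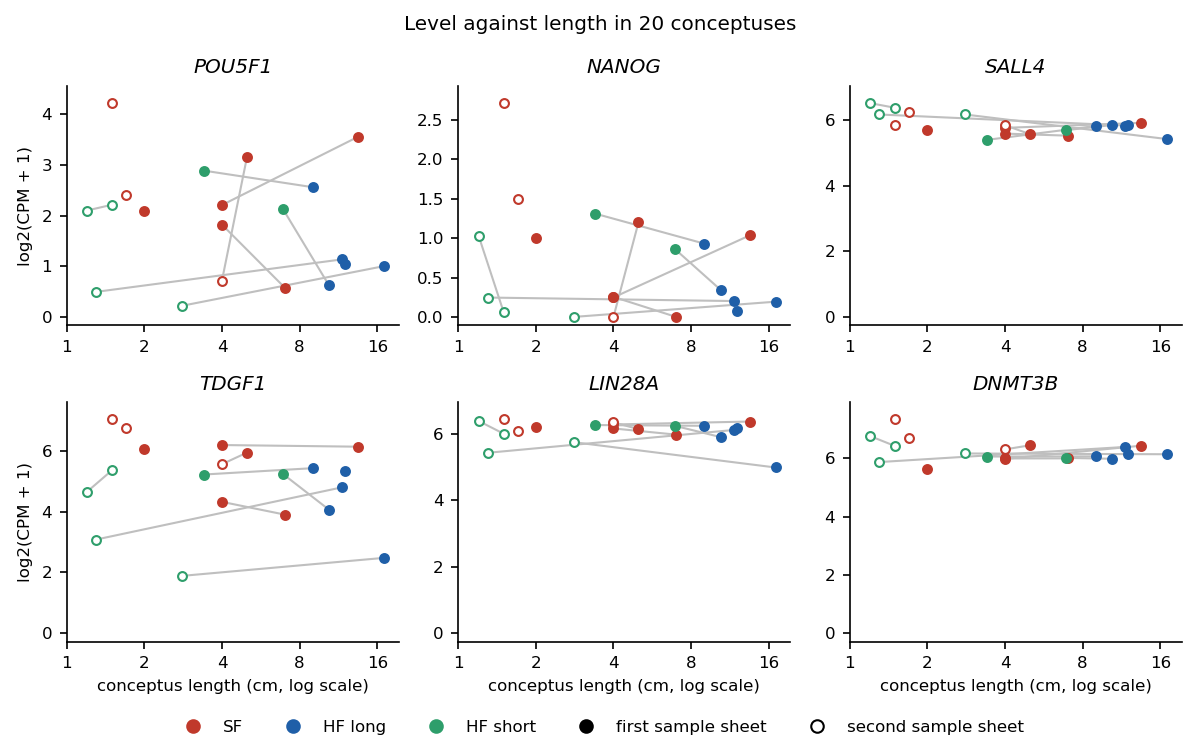
Level of 6 genes, as log2(CPM + 1), against conceptus length in cm on a log scale in 20 conceptuses; grey lines join the 2 conceptuses of a recipient, and open points are on the second sheet. POU5F1 and NANOG scatter at every length, and the lines of POU5F1 go both up and down.

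Conceptuses that shared a uterus could differ greatly in POU5F1, NANOG and NODAL. In recipient 690, the 5 cm conceptus had 7.89 CPM of POU5F1, 1.3 CPM of NANOG and 0.513 CPM of NODAL, and the 4 cm conceptus 0.644, 0 and 0.0239 CPM. The 2 were on different sheets, and their LIN28A levels were 69.1 and 80.0 CPM. In recipient 894 the HF short conceptus of 6.9 cm held 3.37 CPM of POU5F1 and the HF long one of 10 cm 0.539 CPM. In recipient 753, whose conceptuses measured 1.2 and 1.5 cm and shared a sheet, POU5F1 was alike at 3.29 and 3.65 CPM while NANOG was at 1.04 and 0.0456 CPM, the latter from 2 reads.

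The longer conceptus had the higher level in 5 of 8 recipients for POU5F1 and TDGF1, in 4 for SOX2, in 3 for NANOG and SALL4, and in 2 for LIN28A. For DNMT3B the longer conceptus was higher in 4 and lower in 3 recipients. The pair of recipient 778 was nearly equal in DNMT3B, at 62.8 CPM in the shorter and 62.9 CPM in the longer conceptus. For NODAL the longer conceptus was higher in 3 and lower in 2 recipients, and in the other 3 both conceptuses had 0 reads. Within recipients, the slope on log2 length was 0.48 ± 0.35 for POU5F1, 0.24 ± 0.58 for NANOG and 0.32 ± 0.13 for TDGF1, whose edgeR adjusted p was 0.82. This fit called 0% of 17880 genes, TDGF1 was the 1 of the 6 with an unadjusted p under 0.05, and DESeq2 called 0 of the 6. SALL4, LIN28A and DNMT3B had slopes of -0.10 ± 0.07, -0.01 ± 0.09 and 0.10 ± 0.06. With the sheet added the slopes within recipients were -0.34 for POU5F1, -0.80 for NANOG and 0.11 for TDGF1, and without recipient 985 that of TDGF1 was 0.10, so that neither the sign nor the size of these slopes was settled.

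POU5F1, NANOG, SOX2 and NODAL correlated with each other from library to library, but those with SOX2 were weaker without 2 libraries. Over the 27 conceptuses, Pearson's r of log2(CPM + 1) was 0.85 for POU5F1 with NANOG (Spearman's rho 0.79), 0.80 for POU5F1 with NODAL (rho 0.84) and 0.73 for POU5F1 with SOX2 (rho 0.64). Without the 2 conceptuses farthest from the median of POU5F1 these r were 0.80, 0.77 and 0.53, and in the 20 first-sheet libraries alone 0.86, 0.80 and 0.66. SOX2 had an r of 0.82 with NODAL and 0.81 with NANOG. These were 0.39 and 0.64 without the 2 conceptuses farthest from the median of SOX2 and 0.48 each on the first sheet. Over the means of the 19 recipients, r of POU5F1 with NANOG was 0.90. The points share libraries and depth, some share a uterus, and the values are given as a description.

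TDGF1 correlated most with LIN28A, with r of 0.81 (rho 0.78). That r was 0.81 without the 2 conceptuses farthest from the median of TDGF1 and 0.88 on the first sheet. The r of TDGF1 was 0.69 with POU5F1 (rho 0.71), 0.57 with NODAL (rho 0.78), 0.54 with NANOG and 0.48 with SOX2. Without the 2 conceptuses farthest from the median of that other gene, these r were 0.61, 0.59, 0.35 and 0.29. On the first sheet they were 0.60, 0.55, 0.38 and 0.30. TDGF1 had an r of 0.36 with DNMT3B and 0.10 with SALL4. SALL4 had an r of -0.03 to 0.12 with the genes other than DNMT3B, where it was 0.43. DNMT3B had an r of 0.61 with NANOG. That r was 0.13 without the 2 conceptuses farthest from the median of NANOG and 0.06 on the first sheet. This relation thus rested on few libraries.

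**Figure D4:**
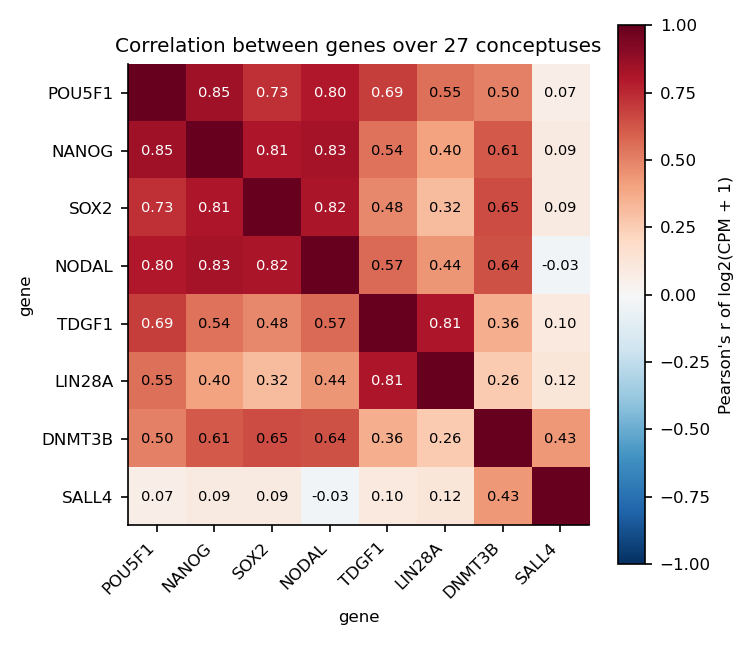
Pearson's r of log2(CPM + 1) between the 8 genes over 27 conceptuses, written in each cell. A block of POU5F1, NANOG, SOX2 and NODAL has r of 0.73 to 0.85, TDGF1 and LIN28A share 0.81, and SALL4 is near 0 with most genes.

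**Figure D5:**
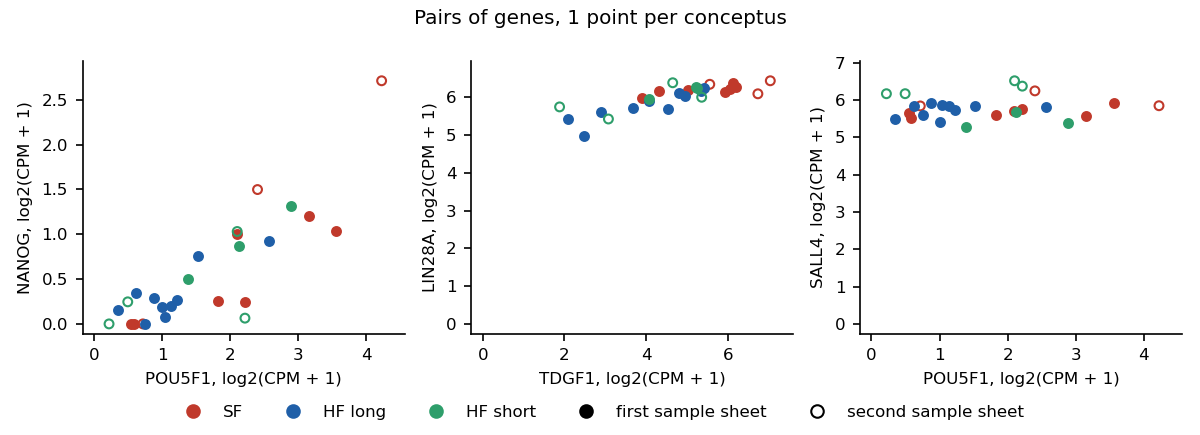
NANOG against POU5F1, LIN28A against TDGF1, and SALL4 against POU5F1, each axis log2(CPM + 1), with 1 point per conceptus, coloured by group and open for the second sheet. The first pair of genes rises together with SF 9 at the upper right, LIN28A rises with TDGF1, and SALL4 is flat along POU5F1.

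The genes most like the set were sought among 13106 other genes that averaged 1 CPM or more, by Pearson's r with the mean of the 6 standardised levels over 27 conceptuses. They were SLC35D1 (r 0.91), CDH26 (0.90), CCDC109B (0.90), CCBE1 (0.88), TMEM88, MTHFD1L, DCBLD2, LRIG1 and SKAP1 (0.87 each) and HDGFRP3 (0.86). For POU5F1 by itself, a search added after the data had been seen, the nearest genes were PDZD4 (r 0.92), TGFBI (0.89) and PRSS35 (0.84). TGFBI had a mean of 1.21 CPM and PDZD4 of 1.10 CPM, both low levels.

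Of 24 other genes of the Nodal pathway, 23 were in the table and 17 passed the filter, of which none was called between SF and HF long. By edgeR, 2 had an unadjusted p under 0.05, INHBB (0.98 ± 0.43, adjusted p = 0.14), a subunit gene of activin B, and ACVR2A (0.31 ± 0.13, adjusted p = 0.14), a type II receptor gene. The median difference was 0.23, beside 0.03 over all genes. Against all HF conceptuses, 0 of 16 were called and 4 had an unadjusted p under 0.05. None was called against HF short, between HF short and HF long, along length, or within recipients, where 1, 0, 4 and 1 had an unadjusted p under 0.05 (edgeR).

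By role, the second ligand gene GDF3 was close to absent, at a median of 0.145 CPM with 10 conceptuses at 0 and 5.84 CPM in SF 9 (SF against HF long 2.12 ± 1.10, adjusted p = 0.22). Receptors and transducers were present: ACVR2A was at 18.8 to 38.9 CPM, ACVR1B at 3.21 to 15.1 CPM, SMAD2 at 52.9 to 138.9 CPM and SMAD4 at 51.9 to 114.3 CPM, while SMAD3 was at 0.539 to 8.14 CPM and the type I receptor gene ACVR1C at 0 in 24 of 27 libraries. FURIN, a protease that processes Nodal precursor, was at 1105.6 to 2487.9 CPM. FOXH1, the DNA-binding partner of SMAD2, was at 0.105 to 3.27 CPM. The antagonist genes CER1 and LEFTY2 were at 0 in 10 libraries each and at most 1.69 and 0.325 CPM. Among the targets, EOMES was at 0 in 7 and at most 4.65 CPM, and GSC was at 0 in 20. The highest libraries of GDF3, FOXH1, CER1 and EOMES were all SF 9.

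Among 19 further pluripotency genes that passed the filter, 2 were higher and 3 lower in SF than in HF long conceptuses (edgeR adjusted p under 0.05), in a comparison that called 8.90% of all genes. DPPA2, a chromatin factor gene of pluripotent cells, was higher by 3.05 ± 0.89 (adjusted p = 0.033) and OTX2, a factor of the primed epiblast, by 1.7 ± 0.53 (adjusted p = 0.046). ETV5, TBX3 and TRIM71 were lower, with differences of -2.08 ± 0.44, -1.16 ± 0.26 and -0.36 ± 0.09. The median of the 19 was 0.22. When 1 library at a time was left out, the calls of ETV5, TBX3 and TRIM71 held in 27 of 27 fits, that of DPPA2 in 21, with a value of 1.65 without SF 2, and that of OTX2 in 6. With limma-voom and the recipient as a random block, TBX3 kept its call, while adjusted p was 0.074 for ETV5, 0.056 for TRIM71, 0.14 for DPPA2 and 0.091 for OTX2. OTX2 was also not called with counts summed per recipient (adjusted p = 0.069) or on the first sheet (0.075). OTX2 had a median of 1.56 CPM in SF, 0.359 CPM in HF long and 0.589 CPM in HF short conceptuses and its highest value, 5.20 CPM, in SF 9, and the highest value of DPPA2, 38.4 CPM, was in SF 2, where POU5F1 was at 0.459 CPM.

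Of 6 DNA methylation genes that passed, TET3, a dioxygenase that oxidises methylcytosine, was lower in SF than in HF long (-0.82 ± 0.22, edgeR adjusted p = 0.025), and the list's median was -0.26. In the sheet contrast TET1 was higher on the second sheet by 0.77 ± 0.19 (adjusted p = 0.018), beside DNMT3B. The trophectoderm gene GATA2 (0.78) and the endoderm gene GATA6 (0.75) were also called higher on the second sheet. Their sheet calls held in 9 and 24 of 27 fits with 1 library left out. Of 16 trophectoderm genes, 5 were lower in SF than in HF long, beside 8.90% of all genes called in either direction: HAND1 (-3.37 ± 0.77), GATA3 (-1.35 ± 0.27), DLX3 (-1.09 ± 0.25), GATA2 (-0.79 ± 0.21) and TFAP2C (-0.52 ± 0.14). The list's median was -0.29. Its summed level was 22746.9 to 72932.3 CPM in SF, 57819.4 to 74266.0 CPM in HF long and 16030.4 to 76217.2 CPM in HF short conceptuses. TKDP1, KRT18 and KRT8 were the most abundant genes of that sum, at medians of 33359.7, 13015.1 and 9661.6 CPM over the conceptuses. GATA6 was the 1 of 15 endoderm genes called (-0.53 ± 0.17, adjusted p = 0.044), with a summed endoderm level of 2752.2 to 8275.8 CPM in SF and 3755.4 to 6134.3 CPM in HF long. MESP2 was the 1 of 5 mesoderm genes called (-2.68 ± 0.81, adjusted p = 0.038). Of these calls, HAND1, GATA3 and DLX3 held in 27 of 27 fits with 1 library left out, GATA2 in 26, TET3 in 24, TFAP2C in 23, MESP2 in 19 and GATA6 in 13. With limma-voom and the recipient as a random block, GATA3 and DLX3 kept their calls, while adjusted p was 0.066 for HAND1, 0.057 for GATA2, 0.1 for TET3, 0.056 for TFAP2C, 0.21 for MESP2 and 0.16 for GATA6. Without the sheet in the fit, GATA2 was at -0.54 (adjusted p = 0.15), TET3 at -0.58 (0.13), TFAP2C at -0.40 (0.092) and GATA6 at -0.28 (0.41). None of 3 neural plate and 4 germ cell genes was called by edgeR, with 0 and 1 at an unadjusted p under 0.05. Against all HF conceptuses, HNF4A (0.62 ± 0.15) and APOE (0.83 ± 0.20) were higher in SF, calls that were lost with counts summed per recipient (adjusted p = 0.13 and 0.072) and with the recipient as a random block (0.058 and 0.055). On the first sheet alone HNF4A was at 0.37 (adjusted p = 0.12). The part that these lineage differences play in the values of the epiblast genes was not tested.

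In endometrium, TDGF1 was present in every library and most of the other genes were near 0. TDGF1 was at 33.7, 170.6 and 1048.9 CPM over 25 libraries, scaled separately and extracted with another reagent than the conceptuses, so no test was made between tissues. Its medians were 58.4 CPM in pregnant HF, 170.6 CPM in pregnant SF, 210.2 CPM in non-pregnant HF, 198.4 CPM in non-pregnant SF and 308.9 CPM in non-pregnant infertile heifers, with overlapping ranges. DNMT3B was at 3.46 to 7.82 CPM and SOX2 at 0 to 0.901 CPM. LIN28A had 0 reads in 21 and NANOG in 23 of 25 libraries and never more than 1, POU5F1 did not exceed 0.229 CPM, SALL4 0.390 CPM or NODAL 0.102 CPM.

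Because TDGF1 was also expressed in endometrium, uterine genes were read in the conceptuses. DCN, the most abundant of the 10 uterine marker genes in endometrium at a median of 2859.3 CPM, was at 0 to 3.05 CPM in conceptuses, with a median that was 0.0193% of its endometrial median, the lowest share of the 9 markers with a conceptus median above 0. The shares of the others were higher, up to 12.1% for ACTG2. Single conceptuses reached 30.0 CPM of ACTG2, 17.6 CPM of OXTR and 8.82 CPM of SERPINA14, beside endometrial medians of 7.63, 8.85 and 25.3 CPM. Progesterone and estrogen receptor genes were near 0, with PGR at no more than 0.809 CPM and ESR1 at no more than 1.12 CPM. The summed list was 3.53 to 37.6 CPM in SF, 5.32 to 21.0 CPM in HF long and 3.44 to 41.4 CPM in HF short conceptuses, and at least 2814.5 CPM in endometrium. Of 7 uterine genes tested between SF and HF long, OXTR was higher in SF (log2 difference 3.25 ± 0.99, edgeR adjusted p = 0.041) and DCN lower (-2.28 ± 0.71, edgeR adjusted p = 0.044). These calls held in 12 of 22 and 15 of 27 fits with 1 library left out and were lost with counts summed per recipient (adjusted p = 0.072 and 0.073). In the remaining fits with 1 library left out, OXTR did not pass the filter. Its medians were 0.435 CPM in SF, 0.0898 CPM in HF long and 0.139 CPM in HF short, near the level of a few reads. With limma-voom OXTR was not called (adjusted p = 0.29). Summed blood and immune markers were 0.250 to 5.82 CPM in SF, the highest in SF 9, and no more than 1.54 CPM in either HF group.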

How the data were processed

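RNA-seq read counts were analysed from 27 day 17 conceptuses and 25 endometrium samples. The authors deposited raw counts per gene, as whole numbers, for 31651 named genes, beside 1020 empty lines that were dropped. A stranded mRNA kit was used, per the labels' protocols. HISAT2, StringTie and edgeR, and the build UMD3.1, are named in the submitters' processing notes, without versions; the strand setting of the counting is not given in these sources. The RefSeq gene table of ARS-UCD2.0 was used for names only: TDGF1 is a synonym of CRIPTO there and the other 7 genes are current symbols.

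Groups, lengths and recipients came from the sample titles and sheets from the descriptions. Low-count genes were dropped by filterByExpr (minimum count of 10, minimum total of 15), which left 16330 genes in the 3-group fit. SOX2 and NODAL did not pass. After TMM scaling, comparisons were tested with edgeR 4.0.16 (quasi-likelihood test, two-sided, R 4.3.3) with Benjamini-Hochberg adjustment over all genes kept. Calls were made below an adjusted p of 0.05. The fits were: 3 groups with sheet (27 libraries); a slope on log2 length with sheet (20 libraries); and a slope on log2 length with recipient as block (16 libraries of 8 recipients). SF against all HF and the sheet contrast were added after seeing the data. Alternatives used DESeq2 1.42.0, limma 3.58.1, other filters and scalings, and leaving out each library. CPM are read counts scaled to the TMM-adjusted library size, computed separately for each tissue, and log2 levels use a pseudocount of 1 CPM. Intervals and limits for a count of 0 (3 counts) cover counting error only. The scripts were tested on simulated data.

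The 8 genes and the other gene lists were chosen with earlier results of these data known. Every gene of the set is named; of each other list, genes called in at least 1 comparison, up to 6 by smallest adjusted p, and uncalled Nodal pathway genes by role. The pairing of conceptuses comes from the recipient numbers in the titles: for the 4 recipients with an HF long and an HF short conceptus, the correlation of the 2 libraries' deviations from their group means was 0.73, 0.45, 0.53 and -0.08.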

Additional observations from a re-analysis of the deposited data

Results flagged for a closer look

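A library lay far from the rest of its group in 6 of 30 sets of gene and group, by the gap to its nearest neighbour relative to the group's range (Dixon's test at 95%). Chance alone flags about 1 in 20 such sets only if the values are normally distributed. The test was run on CPM, which were skewed for POU5F1, SOX2, NANOG and NODAL, and the sets share libraries. The share that chance alone would flag is therefore not known, and 6 of 30 cannot be read as an excess. SF 9 gave 4 of the 6: SOX2 at 1.76 CPM with the next SF conceptus at 0.787 CPM, NANOG at 5.56 CPM with the next at 1.83 CPM, NODAL at 1.05 CPM with the next at 0.513 CPM, and DNMT3B at 161.4 CPM with the next at 101.9 CPM. HF long 3 held 4.91 CPM of POU5F1 with the next HF long conceptus at 1.88 CPM, and the other conceptus of its recipient, HF short 2, held the highest HF level of POU5F1 at 6.41 CPM. SF 10 held 74.8 CPM of SALL4 with the next SF conceptus at 59.3 CPM.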

How the results depend on the processing

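The count of genes of the set that were called moved as follows. SF against HF long had 3 with DESeq2, 1 with a mean of at least 1 CPM as the filter, 1 without the sheet, and 0 to 3 when 1 library was left out. SF against all HF had 0 with counts summed per recipient, the first sheet only, identities by description, or the 20 conceptuses with a length (with length in the fit or not), and 0 to 1 with 1 library left out. The sheet contrast had 0 by description or with log2 length in place of groups, and 1 to 2 with 1 library left out. The other 4 comparisons had 0 throughout. Over all genes, calls ranged over the alternatives from 0 to 2217 for SF against HF long (1454 as reported; 629 to 2110 with 1 library left out), from 0 to 1925 for SF against all HF (1222; 552 to 1513), from 0 to 125 for SF against HF short (1; 0 to 47), from 0 to 2 for HF short against HF long, from 0 to 400 for length (400 without the sheet), from 0 to 14 within recipients, and from 0 to 1523 for the sheet (817; 154 to 1894).

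Sign changes occurred in genes that were not called, and in DNMT3B in the sheet contrast by description (-0.08). By description, the other reversed values were: SF against HF long, DNMT3B 0.29; SF against HF short, LIN28A -0.08 and SALL4 0.02; length, DNMT3B -0.03 and LIN28A 0.07; within recipients, TDGF1 -0.04, POU5F1 -0.11, DNMT3B -0.12 and SALL4 0.07; sheet, TDGF1 -0.54, POU5F1 -1.19 and NANOG -1.55. Without the sheet they were DNMT3B 0.20 and SALL4 0.05 (SF against HF long), DNMT3B 0.03 and SALL4 0.27 (HF short against HF long), and DNMT3B -0.12 and SALL4 -0.15 (length). On the first sheet only, they were DNMT3B -0.04 and SALL4 0.01 (SF against all HF) and NANOG -0.72 and SALL4 0.26 (SF against HF short). Summing per recipient gave SALL4 0.03 (SF against HF short). limma-voom gave NANOG -0.28 (SF against HF short), and POU5F1 -0.32 and NANOG -0.71 (sheet); with recipient as random block it gave TDGF1 -0.05 (HF short against HF long) and NANOG -0.19 (SF against HF short). Log2 length in place of groups gave TDGF1 -0.27, NANOG -0.72 and POU5F1 -0.74 (sheet). For length, SALL4 was -0.01 with fertility class in the fit and -0.02 with only titles that write cm.

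With recipient as replicate block over the 4 recipients that gave both, HF short against HF long was -0.20 for POU5F1, -0.41 for TDGF1 and 0.12 for SALL4, with no call. Within recipients, DNMT3B was -0.04 with no replicate block, NANOG -0.04 for longer against shorter, and with the sheet added POU5F1 -0.34, NANOG -0.80, LIN28A 0.03 and SALL4 0.04. No other call of the set changed with the block.

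With 1 library or recipient left out, the ranges of values that changed sign were -0.01 to 0.18 (DNMT3B, SF against all HF), -0.10 to 0.05 (DNMT3B, SF against HF long), -0.11 to 0.05 (SALL4, SF against HF short), -0.18 to 0.26 (TDGF1, HF short against HF long), -0.02 to 0.06 (SALL4, length), -0.19 to 0.11 (LIN28A) and -0.02 to 0.52 (NANOG) within recipients, and -0.11 to 0.02 (LIN28A), -0.29 to 1.06 (NANOG) and -0.87 to 0.38 (POU5F1) for the sheet. The cause of these changes was not tested. Depth limits SOX2 and NODAL, with 0 reads in 10 and 13 of the 27 conceptuses.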

Other observations

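DPPA2 and POU5F1 did not peak in the same conceptus. DPPA2 was at 38.4 CPM in SF 2, where POU5F1 was at 0.459 CPM with 12 reads and NANOG, SOX2 and NODAL had 0 reads, whereas SF 9, with 17.7 CPM of POU5F1, had 4.32 CPM of DPPA2. SF 2 also held the highest level of the gene MIXL1, a homeobox target of Nodal signalling, at 2.98 CPM. LIN28B, the paralog of LIN28A, was highest in SF 9 at 67.8 CPM, over a range from 10.0 CPM with a median of 25.7 CPM in the 27 conceptuses. SF 9 also held the highest level of the immune cell gene PTPRC at 3.84 CPM, where the median over the conceptuses was 0.0927 CPM and the endometrial median 37.1 CPM.

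The levels of HAND1 ranged from 1.26 to 204.1 CPM over the conceptuses, with medians of 6.70 CPM in SF, 51.8 CPM in HF long and 19.6 CPM in HF short. HF short 7 was highest for HAND1, GATA3, GATA6 and TFAP2A, and held 0.409 CPM of POU5F1 and 7.44 CPM of TDGF1.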
